A study of Mus musculus with 6 samples.

Results

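The genes described here are those of MHC class II antigen presentation, chosen by name from a list of 8: the chains H2-Aa, H2-Ab1, H2-Eb1, H2-DMa, H2-DMb1 and H2-Ob, the invariant chain Cd74 and the transactivator Ciita. The list was drawn up with results of these arrays in view, and each gene was read from the probe set that names it alone, the one with the highest mean over the 6 arrays where there were several. Of the 8 genes, 7 were measured in this way, out of 22180 genes in all. The 1 probe set for Cd74 also names a microRNA gene, so Cd74 was not analysed here. Each of the other 7 genes had 1 probe set.

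The samples were livers of male C57BL/6 mice, 1 array per mouse. In 3 of them the liver expressed Sonic Hedgehog (SHH), the secreted ligand of Hedgehog signalling (mice 26, 28 and 31), and in 3 it expressed green fluorescent protein (GFP, mice 6, 13 and 21). The series was designed to ask how hepatic SHH, delivered by hydrodynamic transfection, affects fibrosis and the genes tied to it. In this method a large volume of DNA solution is pushed quickly into a vein, and it reaches mainly hepatocytes and only a part of them. The labels give neither the promoter of the introduced gene nor the age of the mice or the time after injection. Nothing beyond the mouse numbers says how the mice were housed or processed together, and no number is shared between the groups.

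MHC class II molecules display peptides from ingested proteins to CD4 T cells. They are made mainly by dendritic cells, B cells and macrophages, and interferon-gamma can induce them in other cells, endothelium among them. Each molecule is an alpha and a beta chain that assemble on the invariant chain. Cathepsins degrade that chain to a short fragment, H2-DM exchanges the fragment for other peptides, and H2-DO restrains H2-DM. Transcription depends on CIITA, which does not bind DNA itself but is recruited by a complex of RFX, CREB and NF-Y on paired promoter elements known as the X and Y boxes. The C57BL/6 strain carries the H2 b haplotype, which makes the I-A molecule from H2-Aa and H2-Ab1 but no I-E at the cell surface, since its H2-Ea gene is not functional. H2-Eb1, the I-E beta chain, is still transcribed.

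The X and Y boxes, the promoter elements named above, are shown first. The windows are RefSeq promoters of GRCm38.p6, which run from 250 bases before the transcription start to 50 after it. They were found for 5 of the 8 listed genes and for 3 paralogs, and none were found for H2-Ab1, Cd74 or Ciita. The letters GNAAC, from the core of the X1 box, and TGATTGG, the Y box, were searched on both strands, and a pair was counted where GNAAC preceded TGATTGG on the same strand with 15 to 35 bases between them. These letters and the spacing were chosen after the sequences were seen. The motifs do not overlap each other. In the lines below, capitals mark GNAAC and then TGATTGG, read 5′ to 3′ on the gene's strand.
H2-Aa (chr17:34287859-34287912, minus strand): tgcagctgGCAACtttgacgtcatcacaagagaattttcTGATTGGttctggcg
H2-Eb1 (chr17:34305768-34305820, plus strand): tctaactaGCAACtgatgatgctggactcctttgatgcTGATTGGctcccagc
H2-DMb1 (chr17:34153089-34153142, plus strand): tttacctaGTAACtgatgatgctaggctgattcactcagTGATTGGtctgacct
H2-Ob (chr17:34238810-34238860, plus strand): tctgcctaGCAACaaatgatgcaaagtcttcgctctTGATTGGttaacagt
H2-Oa (chr17:34092295-34092348, plus strand): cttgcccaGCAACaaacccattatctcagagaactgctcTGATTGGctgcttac
H2-Eb2 (chr17:34325535-34325587, plus strand): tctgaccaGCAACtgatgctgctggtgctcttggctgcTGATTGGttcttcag

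The pair was present in 4 of the 5 listed genes with a window (H2-Aa, H2-Eb1, H2-DMb1 and H2-Ob) and in 2 of the 3 paralogs (H2-Oa and H2-Eb2). It was present in 0.569% of all 32851 promoter windows. No enrichment is read from this, since the letters and the spacing were chosen after the sequences were seen. TGATTGG alone was present in 7.82% of windows and GNAAC alone in 84.8%. The 2 elements lay 26 bases apart in H2-Aa, H2-DMb1 and H2-Oa, 25 in H2-Eb1 and H2-Eb2, and 23 in H2-Ob. In H2-Aa the Y box began 50 bases before the start and in H2-Eb1 61 bases before it. H2-Aa also held TGACGTCA, the full CREB element, between its X1 core and its Y box, and 1.79% of all windows hold these letters. Neither of the 2 windows of H2-DMa, and not the window of H2-DMb2, held the pair, although the H2-DMb2 window had TGATTGG. A match in letters is a description and does not show that a factor binds there.

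**Figure D1:**
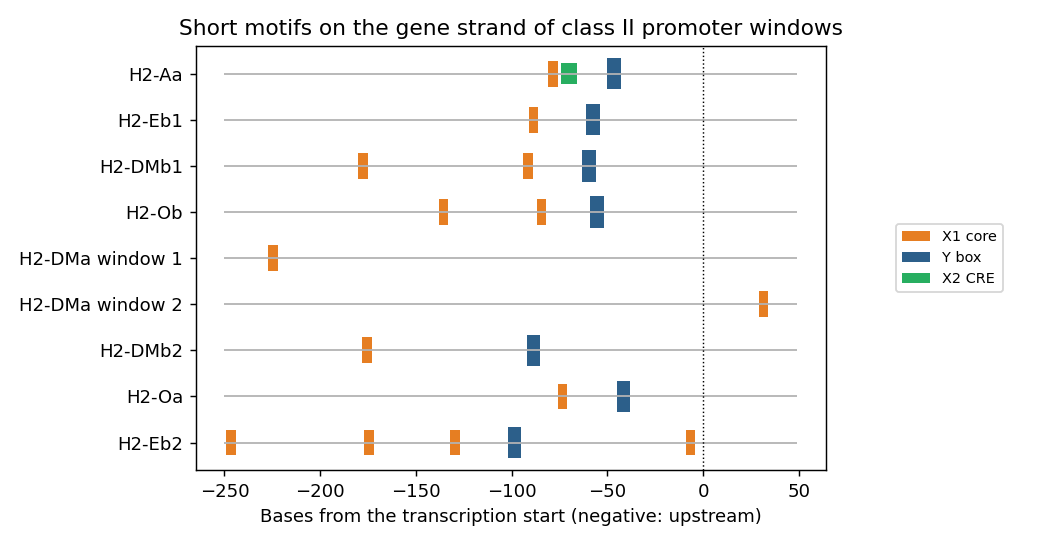
The horizontal axis gives bases from the transcription start for each class II promoter window found (2 for H2-DMa), and boxes mark the X1 core, the Y box and the full CREB element on the gene's strand. In H2-Aa, H2-Eb1, H2-DMb1, H2-Ob, H2-Oa and H2-Eb2 an X1 core stands 23 to 26 bases upstream of a Y box.

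The arrays as a whole set the frame for these genes. Over the 41345 probe sets, pairs of SHH livers correlated at 0.975 to 0.979, pairs of GFP livers at 0.975 to 0.979 and mixed pairs at 0.971 to 0.981 (Pearson). SHH 26 correlated more closely with GFP 6 (0.9807) and GFP 21 (0.9804) than with SHH 28 (0.9791) or SHH 31 (0.9775). Shh signal was 4.28 to 4.63 in SHH livers and 3.43 to 3.86 in GFP livers on the log2 scale, the direction that the labels give. Its mean level lay below the median gene, at the 37.0th percentile. Every SHH liver also lay above every GFP liver in 5.26% of all genes. The 6 hepatocyte markers measured, Alb, Apoa1, Ttr, Apob, Cps1 and Hnf4a, had mean log2 signals of 12.4 to 12.6 in SHH livers and 12.4 to 12.5 in GFP livers, which fits the labelled tissue. In limma over all genes, 0 passed the Benjamini-Hochberg threshold of 0.05 in either direction (0% of 22180). An unadjusted p under 0.05 was reached by 738 genes with higher means (3.33%) and by 889 with lower means (4.01%).

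The classical chains had the largest differences of the 7 genes, and their values did not overlap between the groups. H2-Ab1, the I-A beta chain, had log2 signals of 7.97, 7.56 and 9.16 in SHH mice 26, 28 and 31, against 7.25, 7.07 and 6.72 in GFP mice 6, 13 and 21. Every SHH liver lay above every GFP liver, with SHH 31 well above the other SHH livers. The means were 8.23 ± 0.83 in SHH livers and 7.01 ± 0.27 in GFP livers (SD, n = 3 each), a difference of 1.22 on the log2 scale or 2.33-fold. Its partner H2-Aa, the I-A alpha chain, had 7.34, 6.67 and 8.21 in the SHH livers, against 6.48, 6.17 and 5.97 in the GFP livers, in the same mouse order. The order of the livers was the same as for H2-Ab1, from SHH 31 at the top to GFP 21 at the bottom. The difference was 1.20 (2.30-fold), with SDs of 0.77 in SHH livers and 0.26 in GFP livers.

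H2-Eb1, the beta chain of I-E, showed the same pattern although its molecule is not assembled in this strain. Its log2 signals were 7.43, 7.16 and 8.16 in SHH mice 26, 28 and 31, against 6.73, 6.73 and 6.13 in GFP mice 6, 13 and 21. Again SHH 31 was the highest liver, SHH 28 the lowest of its group and GFP 21 the lowest of all. The difference was 1.05 (2.08-fold), with SDs of 0.52 and 0.35 in SHH and GFP livers. The differences of these 3 chains lay at or above the 99.6th percentile of the differences of all genes, which is a description, since the genes were chosen with this contrast known. In a bulk liver, more cells carrying class II and more class II RNA per cell cannot be told apart.

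The size of these differences rested in part on SHH 31, while their direction did not. Without that mouse the differences were 0.75 for H2-Ab1, 0.80 for H2-Aa and 0.76 for H2-Eb1. Without SHH 28, the SHH liver with the lowest values, they were 1.56, 1.57 and 1.27. The groups still did not overlap for any of the 3 chains when any 1 mouse was left out, because the lowest SHH value was above the highest GFP value with all 6 mice in place.

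The chains of the peptide exchange machinery had smaller differences, with overlap between the groups for H2-DMa. H2-DMa, the alpha chain of H2-DM, had log2 signals of 5.32, 5.12 and 5.96 in SHH mice 26, 28 and 31, against 5.32, 4.89 and 5.34 in GFP mice 6, 13 and 21. SHH 26 and SHH 28 lay within the range of the GFP livers. The difference of 0.28 (1.22-fold) became 0.03 without SHH 31. H2-DMb1, the beta chain of H2-DM, had 3.51, 3.58 and 3.30 in the SHH livers and 3.12, 2.63 and 3.08 in the GFP livers. The groups did not overlap, the difference was 0.52 (1.43-fold), and unlike the other 6 genes it was lowest of the SHH livers in SHH 31. The GFP values lay below the lower quartiles of their arrays (3.13 to 3.22 over all arrays) and the SHH values not far above them, where a signal holds little information. H2-DMb1 also has a near-identical neighbour, H2-DMb2, so the signal of each may contain the other.

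H2-Ob, the beta chain of H2-DO and a gene of B cells in particular, did not separate the groups. Its log2 signals were 4.29, 3.86 and 4.82 in SHH mice 26, 28 and 31, against 4.55, 3.78 and 4.38 in GFP mice 6, 13 and 21. The lowest and the second lowest values came from 1 mouse of each group. The difference was 0.09, and it became -0.16 without SHH 31 and -0.14 without GFP 13. H2-Ob, H2-Aa and H2-Eb1 all carry the X and Y pair printed above, with differences of 0.09, 1.20 and 1.05. Unlike the other genes of that trio, H2-Ob had a mean level below the median gene, so its small difference says little.

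Ciita, the transactivator on which class II transcription depends, differed little against its spread. Its log2 signals were 5.28, 5.04 and 5.61 in SHH mice 26, 28 and 31, against 4.46, 5.15 and 5.25 in GFP mice 6, 13 and 21. SHH 28 lay below GFP 13 and GFP 21, and GFP 6 stood apart below the other 5 livers. The means were 5.31 ± 0.29 in SHH livers and 4.95 ± 0.43 in GFP livers (SD, n = 3 each). The difference of 0.36 (1.28-fold) became 0.11 without GFP 6. With all mice it lay at the 95.7th percentile of the differences of all genes, which is again a description. GFP 6, the liver with the lowest Ciita, had the highest signals of the GFP group for H2-Aa and H2-Ab1. For H2-Eb1 it was nearly level with GFP 13 (6.734 and 6.727). The part of Ciita in the class II values was not tested.

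**Figure D2:**
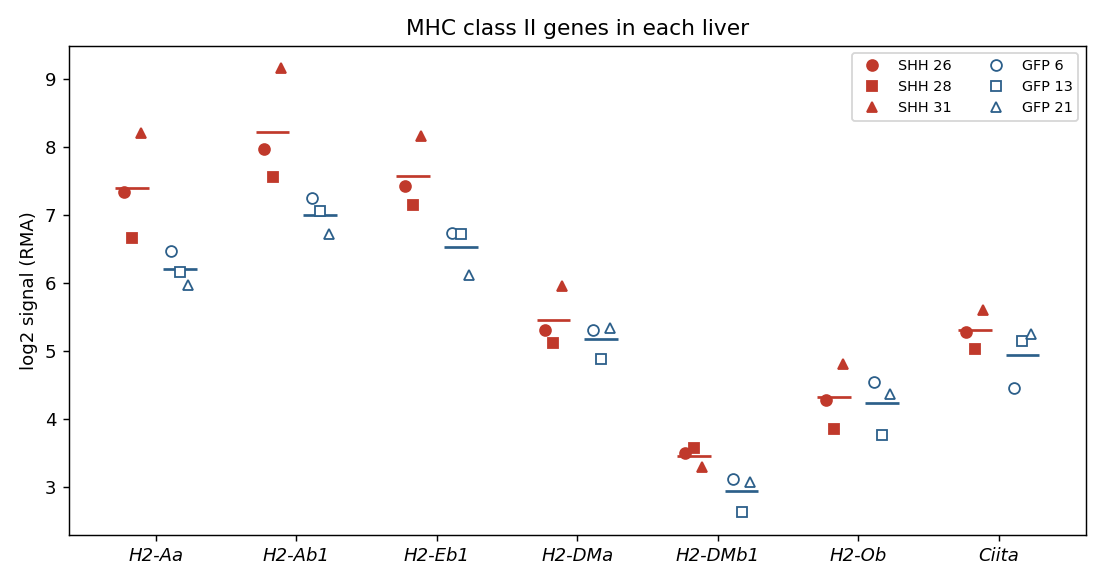
The vertical axis gives the log2 signal of each of the 7 measured class II genes in each liver, with filled symbols for SHH mice, open symbols for GFP mice and a line at each group mean. SHH and GFP points are apart for H2-Aa, H2-Ab1, H2-Eb1 and H2-DMb1 and overlap for H2-DMa, H2-Ob and Ciita; levels of different genes are not comparable, since each probe set has its own brightness.

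Mean signals in SHH livers were higher for all 7 genes and lower for 0, where 43.8% of all genes had higher and 56.2% lower means. In 4 of the 7 every SHH liver lay above every GFP liver, as in 5.26% of all genes, and in 0 every SHH liver lay below, as in 7.25% of all genes. Of the 7 genes, 0 passed the limma threshold over all genes, where 0% of all genes passed. The median difference was 0.52 over the 7 genes and -0.03 over all genes. Nothing is read from these counts, since the genes were chosen on this contrast. Among the livers, SHH 31 had the highest value in 6 of the 7 genes and SHH 28 the lowest of the SHH group in 6. Within the GFP group, GFP 6 was highest in 5 genes, and the lowest liver was GFP 13 in 3, GFP 21 in 3 and GFP 6 in 1.

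The paralogs of the class II region stayed near their GFP levels, except H2-DMb2. H2-Oa, the alpha chain of H2-DO, differed by -0.03, H2-Eb2 by 0.02 and H2-Ea, a transcribed pseudogene in the RefSeq annotation of this strain, by 0.09. H2-Oa and H2-Eb2 carry the X and Y pair, and their values overlapped between the groups. H2-DMb2 had log2 signals of 4.74, 4.67 and 5.13 in SHH mice 26, 28 and 31, against 3.96, 4.53 and 4.17 in GFP mice 6, 13 and 21. Every SHH value lay above every GFP value, and the difference of 0.63 (1.55-fold) did not pass over all genes (limma, adjusted p = 0.521). All 4 paralogs had mean levels below the median gene, so a small difference says little.

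The factors that hold CIITA on the promoter had small differences in both directions, from -0.22 to 0.15. Of 7 genes of the complex, 4 had higher and 3 lower means (43.8% and 56.2% of all genes), and 0 passed in limma over all genes. An unadjusted p under 0.05 was reached by 0 (3.33% of all genes higher and 4.01% lower). The RFX subunits Rfx5, Rfxap and Rfxank differed by 0.09, 0.03 and 0.15, and the NF-Y subunits Nfya, Nfyb and Nfyc by 0.13, -0.00 and -0.22. Nfyc was the lowest of the list and lay lower in every SHH liver (6.78 to 6.98) than in any GFP liver (7.03 to 7.20). The median difference of the list was 0.03.

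Genes of the interferon-gamma route, the main inducer of Ciita outside professional presenting cells, all had higher means in SHH livers, 7 of 7 measured (of 8 listed). None passed over all genes in limma, and 3 were higher at an unadjusted p under 0.05: Ifngr1, Ifngr2 and Irf1. Of all genes, 43.8% had higher means and 3.33% were higher at an unadjusted p under 0.05 in limma. Nothing is read from the counts of this and the following lists, which were chosen with earlier results known. Ifngr1, a chain of the interferon-gamma receptor, had log2 signals of 7.53, 7.62 and 7.65 in SHH mice 26, 28 and 31, against 7.27, 6.98 and 7.11 in GFP mice 6, 13 and 21. The groups did not overlap and the SHH livers lay close together, with a difference of 0.48 (limma, adjusted p = 0.488). Its partner Ifngr2 differed by 0.27. Irf1, a transcription factor induced by the cytokine, had 6.85, 6.99 and 7.42 in the SHH livers and 6.47, 6.46 and 6.78 in the GFP livers, a difference of 0.51 (limma, adjusted p = 0.586). The kinases Jak1 and Jak2 differed by 0.10 and 0.06. Ifng itself had 2.51 to 2.95 in SHH livers and 2.17 to 2.77 in GFP livers, below the lower quartile of every array, so its difference of 0.22 says little.

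Among 8 genes of peptide processing all had higher means in SHH livers. None passed over all genes in limma, and 4 were higher at an unadjusted p under 0.05. The shares over all genes were 43.8% with higher means and 3.33% higher at an unadjusted p under 0.05. Ctss, the cathepsin that trims the invariant chain in dendritic and B cells, had log2 signals of 8.52, 8.54 and 9.90 in SHH mice 26, 28 and 31, against 8.33, 7.44 and 7.69 in GFP mice 6, 13 and 21. The SHH livers lay above the GFP livers, although GFP 6 came close to SHH 26 and SHH 28. The difference was 1.17 or 2.25-fold (limma, adjusted p = 0.556). Ifi30, a lysosomal thiol reductase, and Lgmn, an asparaginyl protease, differed by 0.68 and 0.61, with GFP 6 inside the SHH range for both. Ctsl, Ctsb and Ctsd, lysosomal proteases that hepatocytes also express, differed by 0.23, 0.22 and 0.12, and Ctsh was the lowest of the list at 0.08.

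Genes that control the turnover of class II molecules gave no common direction. Of 7 measured, 3 had higher and 4 lower means (43.8% and 56.2% of all genes), and 0 passed over all genes in limma. An unadjusted p under 0.05 was reached by 0 (3.33% of all genes higher and 4.01% lower). Marchf1, the ubiquitin ligase that removes class II from the surface of dendritic and B cells, differed by 0.16, and its relative Marchf8 was the lowest of the list at -0.30. Sppl2a, which cleaves the last fragment of the invariant chain, differed by 0.10 and Cd83, which protects class II from Marchf1, by -0.03. Cd63 and Cd82, tetraspanins of the compartments where peptides are loaded, differed by 0.18 and -0.11.

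Costimulatory genes, which presenting cells need alongside class II to activate T cells, had higher means for 5 of 7 (43.8% of all genes). In limma 0 passed the threshold and 0 had an unadjusted p under 0.05 (3.33% of all genes higher and 4.01% lower). Cd86, Cd80 and Cd40 differed by 0.20, 0.35 and 0.23, and their values overlapped between the groups. Icosl differed by 0.05. Cd274, the inhibitory ligand PD-L1, was the highest of the list at 0.51, with 5.12, 5.12 and 6.01 in SHH mice 26, 28 and 31, against 4.76, 5.06 and 4.89 in GFP mice 6, 13 and 21. Pdcd1lg2, a second ligand of the same receptor, was the lowest at -0.13. On the T cell side, 8 of 10 genes had higher means (43.8% of all genes), and 0 passed over all genes in limma. An unadjusted p under 0.05 was reached by 1 gene upward and 1 downward (3.33% and 4.01% of all genes). Cd4, the coreceptor that binds class II, differed by 0.17 with overlapping values, and the T cell receptor components Cd3e, Cd3d and Cd3g by 0.42, 0.30 and 1.02. Cd3g had 5.13, 4.70 and 5.93 in SHH mice 26, 28 and 31, against 4.02, 4.33 and 4.33 in GFP mice 6, 13 and 21 (limma, adjusted p = 0.490). Cd28 and Icos, receptors for costimulation, differed by 0.27 and 0.34. Il2ra was the lowest of the list at -0.45.

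**Figure D3:**
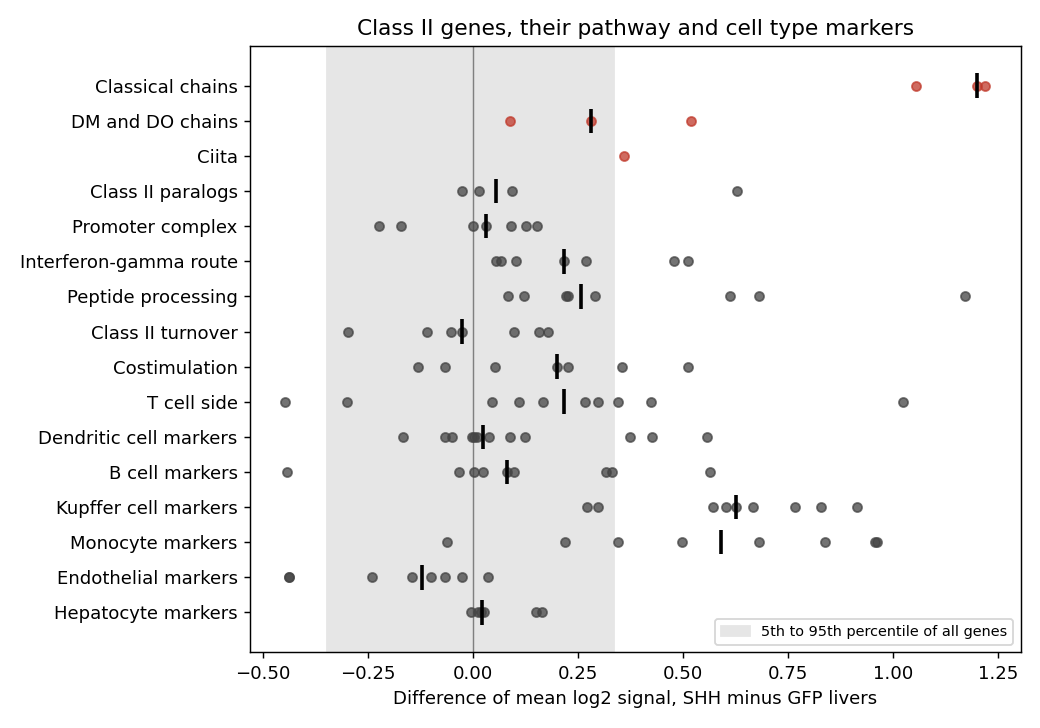
The horizontal axis gives the difference of mean log2 signal, SHH minus GFP livers, with 1 point per gene, a bar at each list's median and grey from the 5th to the 95th percentile of all genes (-0.35 to 0.34). The classical chains lie at 1.05 to 1.22, the promoter complex, dendritic cell and B cell lists have medians of 0.03, 0.02 and 0.08, and the Kupffer cell and monocyte lists have medians of 0.63 and 0.59.

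Markers of the cells that carry class II are given beside the chains, and none of them passed over all genes. Of 9 Kupffer cell markers, 9 had higher means, 0 passed over all genes in limma and 5 were higher at an unadjusted p under 0.05. The shares over all genes were 43.8% with higher means and 3.33% higher at an unadjusted p under 0.05. Clec4f, Timd4, Vsig4, Cd5l, Marco and Adgre1 differed by 0.60, 0.30, 0.77, 0.91, 0.63 and 0.83, with Cd5l the highest and C6, which hepatocytes also make, the lowest at 0.27. None of the 9 separated the groups, and few of all genes did (SHH above in 5.26%, SHH below in 7.25%). The mean level of the list was 7.31 to 8.19 in SHH livers and 6.74 to 7.57 in GFP livers. Relative to the GFP mean it stood at 0.27, 0.42 and 1.16 in SHH mice 26, 28 and 31, against 0.54, -0.24 and -0.29 in GFP mice 6, 13 and 21. GFP 6 was above SHH 26 for 7 of the 9 markers, and above SHH 28 for 5 and below it for 4. Its higher list mean against SHH 28 rested on Marco: over the other 8 markers, an alternative chosen after seeing the data, the means were 0.32 in SHH 26 and 0.47 in SHH 28, against 0.46 in GFP 6.

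The mean of the 3 classical chains had another order of livers, at 0.996, 0.55 and 1.93 in SHH mice 26, 28 and 31, against 0.24, 0.07 and -0.31 in GFP mice 6, 13 and 21, again relative to the GFP mean. SHH 26 exceeded GFP 6 by these chains while it was below GFP 6 by the Kupffer cell list. SHH 31 was highest by both. The part of Kupffer cell number in the class II values was not tested.

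Of 8 monocyte markers, 7 had higher means (43.8% of all genes) and 0 passed over all genes in limma. At an unadjusted p under 0.05, 3 were higher (3.33% of all genes). Ccr2, the chemokine receptor of inflammatory monocytes, and the integrin chain Itgam differed by 0.96 and 0.84, Ly6c2 by 0.34, F13a1 by 0.22 and Plac8 by 0.96, while Cx3cr1 was the lowest at -0.06. Itgam had 4.46, 5.04 and 5.21 in SHH mice 26, 28 and 31, against 4.04, 4.18 and 3.98 in GFP mice 6, 13 and 21 (limma, adjusted p = 0.409). The mean of the list relative to GFP livers was 0.16, 0.57 and 0.93 in the SHH livers and -0.01, 0.01 and -0.01 in the GFP livers. SHH 26 was the lowest SHH liver for these markers and SHH 28 the lowest for the classical chains. The mean level was 4.56 to 5.33 in SHH livers and 4.40 to 4.41 in GFP livers. Their part in the class II values was not tested.

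The means of the dendritic cell and B cell marker lists were highest in SHH 31, which was the highest liver for 7 of 12 dendritic cell markers and 5 of 9 B cell markers. Of 12 dendritic cell markers, 8 had higher and 4 lower means (43.8% and 56.2% of all genes). In limma 0 passed over all genes or had an unadjusted p under 0.05 (3.33% of all genes higher and 4.01% lower). Flt3, Itgax, Zbtb46, Xcr1, Cd209a and Batf3 differed by 0.12, 0.43, -0.17, -0.05, 0.04 and -0.00. None of the 12 separated the groups, and few of all genes did (SHH above in 5.26%, SHH below in 7.25%). Irf8 was the highest at 0.56, but its probe sets disagreed: it differed by -0.25 with the one of largest interquartile range. The mean of the list was -0.04, -0.03 and 0.41 relative to GFP livers in SHH mice 26, 28 and 31, and its level was 4.56 to 5.01 in SHH livers and 4.58 to 4.62 in GFP livers. The members of the list ran both ways, from -0.17 for Zbtb46 to 0.56 for Irf8, and the part of dendritic cells in the class II values was not tested.

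Of 9 B cell markers, 7 had higher and 2 lower means (43.8% and 56.2% of all genes), and 0 passed over all genes in limma. At an unadjusted p under 0.05, 1 was lower (Fcer2a, the lowest at -0.44), as were 4.01% of all genes. Cd79a, Cd79b, Ms4a1, Pax5 and Cd22 differed by 0.32, 0.00, 0.02, 0.10 and 0.33, and Spib was the highest at 0.56. The mean of the list was -0.07, 0.09 and 0.29 relative to GFP livers in SHH mice 26, 28 and 31. Its level was 3.69 to 4.04 in SHH livers and 3.68 to 3.80 in GFP livers, and all 9 markers had mean levels below the median gene. Of 8 endothelial markers, 1 had a higher and 7 a lower mean (43.8% and 56.2% of all genes), with 0 past the threshold. In limma 0 had an unadjusted p under 0.05 (3.33% of all genes higher and 4.01% lower). Stab2, Lyve1, Clec4g and Fcgr2b, genes of sinusoidal endothelium, differed by -0.15, -0.10, -0.44 and -0.24. Stab1, also of sinusoidal endothelium, was the highest of the list at 0.04, and Pecam1, a gene of all endothelium, differed by -0.07. The level of the list was 6.56 to 7.33 in SHH livers and 6.89 to 7.35 in GFP livers. The part of B cells and of endothelium in the class II values was not tested.

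**Figure D4:**
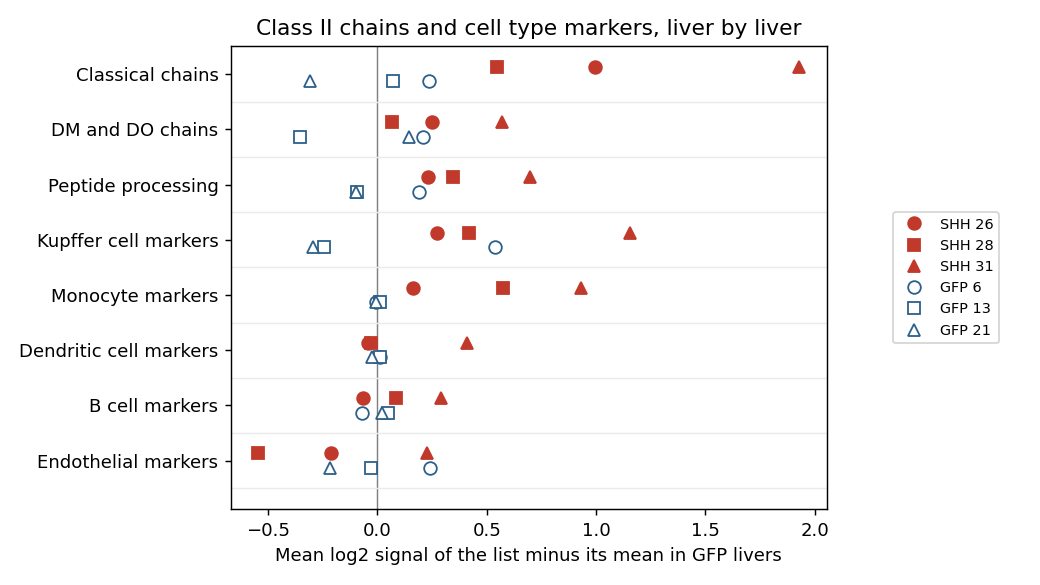
The horizontal axis gives the mean log2 signal of each list in each liver minus its mean over the GFP livers, with filled symbols for SHH mice and open symbols for GFP mice. For the classical chains the SHH livers lie at 0.55 to 1.93, above the GFP livers at -0.31 to 0.24. For Kupffer cell markers GFP 6 at 0.54 lies above SHH 26 at 0.27 and SHH 28 at 0.42. Without Marco, GFP 6 and SHH 28 are close, at 0.46 and 0.47.

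The genes nearest to the mean profile of the 7 class II genes over the 6 livers were found by root mean square distance, each gene taken relative to its own mean. The nearest were Samhd1 (0.08 on the log2 scale), Il2rb (0.09), Olfr705 (0.09), Fgl2 (0.09), Rgs2 (0.11), Slc15a3 (0.11), Btk (0.11), Myo1g (0.11), Gab2 (0.11) and Acot9 (0.11). The median over all other genes was 0.47, and the 7 class II genes themselves lay 0.23 (H2-DMa) to 0.38 (H2-Ab1) from their mean profile. The genes just named are thus near to an average that no single class II gene follows as closely. Samhd1, a nucleotide hydrolase of myeloid cells, had 7.42, 7.32 and 8.21 in SHH mice 26, 28 and 31, against 7.16, 6.92 and 7.05 in GFP mice 6, 13 and 21. It shared with H2-Ab1 the order of the SHH livers, SHH 31 first and SHH 28 last. Btk, a kinase of B cells and myeloid cells, had 4.84, 4.52 and 5.42 in the SHH livers and 4.51, 4.39 and 4.48 in the GFP livers. Olfr705 had 2.15 to 2.53 in GFP livers, below the lower quartile of every array, so its place in this ranking says little. Il2rb, Btk, Myo1g and Acot9 also had mean levels below the median gene. The likeness is a description over 6 livers, and the group difference enters it.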

How the data were processed

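Per the labels' protocols, Trizol was used to extract total RNA from 6 livers, and biotinylated cRNA was hybridised to Affymetrix arrays. Each array has 1 deposited column of log2 signals, made with RMA per the submitters' processing notes, which do not state its version or the probe set level. The platform annotation paired 23521 of 41345 probe sets with 1 gene and 1814 with several, and 16010 were unnamed here. All 7 measured genes matched RefSeq identifiers.

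The contrast of SHH with GFP livers was fitted in R 4.3.3 with limma 3.58.1 (two-sided moderated test, Benjamini-Hochberg threshold 0.05 over 22180 genes), without filter or covariate; the code was tested on simulated data. The number of arrays limits the precision. An unadjusted p served only to count genes, a few of which are named with the count. The class II genes, whose p-values are not given, and the other lists were chosen with earlier results of these data known. Text names the class II genes, the first 6 measured genes and the extremes of each list, all paralogs, and the 10 nearest profiles; other genes were named after their values were seen. Alternatives were other probe set rules, normalizations, priors and thresholds, a level filter, array weights and each mouse left out.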

Additional observations from a re-analysis of the deposited data

How the results depend on the processing

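The count of 0 genes past the threshold held with every planned setting except 1: without SHH 26, 46 genes passed (30 higher and 16 lower), and none of the 7 class II genes was among them. Leaving out each mouse in turn gave 0 to 46 genes and a median difference of the class II genes of 0.46 to 0.61 (0.52 with all mice). The class II genes without overlap numbered 4 to 5 (4 with all mice). That number could not fall, because leaving out a mouse cannot make separated groups overlap, so nothing is read from it. With only genes above the median level the median difference was 1.05, because H2-DMb1 and H2-Ob were then left out, which leaves 5 class II genes. Normalizing again left the differences of H2-Aa, H2-Ab1 and H2-Eb1 between 1.08 and 1.24. Of the 7 class II genes only H2-Ob changed sign, without SHH 31 or GFP 13. With the mean of all probe sets Rgs2 differed by 0.23 and Myo1g by 0.14, against 0.71 and 0.60 with the brightest. The replicate numbers name mice and are not shared: No paired analysis was possible because the groups have no number in common. Background correction and slide were not tested, since scanner files were not used here. With 3 arrays per group, and H2-DMb1, H2-Ob and the paralogs below the median level, small differences of these genes could not be resolved.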
